A study of Mus musculus with 21 samples.

Results

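Lrrc32 and 9 genes that carry or restrain TGF-β signaling (Tgfb1, Tgfbr1, Tgfbr2, Smad2, Smad3, Smad4, Smad7, Ski and Skil) were followed in early-transformed mouse B cell precursors. They are 10 of the 24421 genes in the count table and were found by symbol, and 10 of 10 passed the filter on low counts. The set was chosen from the difference of Lrrc32 between BCR-ABL1 and C-MYC cells in these same libraries, so every value of Lrrc32 is given as a description without a test. The 9 partner genes were picked for their place in the pathway, but with the results known, and their calls are not independent evidence. Lrrc32 was high in BCR-ABL1 cells, intermediate in empty vector (EV) cells and lowest in C-MYC cells, while Tgfb1 and Tgfbr2 fell in C-MYC cells and Ski fell with either oncogene.

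The cells were bone marrow B cell precursors of C57BL/6 mice that lack 53BP1, a genotype shared by all 3 conditions, so no condition here has intact 53BP1. They were expanded in interleukin-7 and spinoculated early in culture with the MIGR1 retrovirus, whose viral promoter drives the insert, either empty (EV), with human BCR-ABL1 p210, the fusion kinase of Philadelphia chromosome-positive leukemia, or with mouse C-MYC. Poly(A) RNA was sequenced from 2 libraries per condition, labelled as harvested 7 to 9 days after transduction. The libraries come from repeat experiments by the study's methods, but no label ties them to separate animals, so p-values measure the spread between these libraries only. Cultures started from total marrow, in which interleukin-7 enriches B cell precursors, and dead cells were removed at harvest by the study's methods.

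TGF-β is secreted as a latent complex in which a propeptide holds the mature growth factor inactive. GARP, the product of Lrrc32, is a membrane protein that docks latent TGF-β on the surface of regulatory T cells, platelets and endothelium, from where integrins can release it. Released TGF-β binds TGFBR2, which recruits and phosphorylates TGFBR1. TGFBR1 then phosphorylates SMAD2 and SMAD3, which enter the nucleus with SMAD4. SMAD7 blocks the receptors, and SKI and SnoN (Skil) repress SMAD-bound genes. In the B lineage TGF-β is known as a growth inhibitor.

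Library totals lay between 20687092 and 24095955 counts, and the 10 most abundant genes took 4.07 to 5.28% of them. Myc counts of 37920 and 27450 in C-MYC libraries stood above 3277 to 8381 in the other 4, as the labels say, although reads of the vector and of the endogenous gene are the same here. B cell precursor markers were present in every library (0 of 12 at 0), with a summed level of 5685 to 6462 CPM (counts scaled to library size by TMM) in EV, 5846 to 6494 in BCR-ABL1 and 3306 to 3927 in C-MYC. The EV cultures also carried transcripts of other cells. The 8 stromal markers summed to 110.5 to 174.3 CPM in EV, 5.40 to 7.15 in BCR-ABL1 and 1.89 to 2.78 in C-MYC, and the 8 macrophage markers to 326.1 to 596.2, 45.6 to 59.5 and 130 to 229.5 CPM. Of the stromal markers 1, 1 and 3 were at 0 in both libraries of EV, BCR-ABL1 and C-MYC, and of the macrophage markers 0 in each. The EV libraries differed from each other more than the other pairs did, with 42.9 for the chi-square statistic of their counts per degree of freedom against 10.1 for BCR-ABL1 and 19.1 for C-MYC, and EV replicate 2 had the higher stromal and macrophage sums. In such bulk RNA fewer cells of a type and less RNA per cell cannot be told apart. The part of stromal cells and macrophages was not tested for any gene below, Tgfb1, Tgfbr2 and Ski among them.

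Lrrc32 (chr7:98489283-98502181, plus strand, GRCm38) had raw counts of 978 and 611 in EV cells, 2241 and 1780 with BCR-ABL1, and 87 and 77 with C-MYC. Values here and below follow the order EV, BCR-ABL1 and C-MYC, with replicate 1 first. Scaled to library size they were 45.7 and 25.5 CPM, 106.2 and 73.96 CPM, and 3.999 and 3.46 CPM. No library of one condition overlapped with those of another, and the C-MYC libraries lay furthest from the rest. The fitted log2 difference was 1.34 ± 0.28 (SE, n = 2 per condition) for BCR-ABL1 against EV and -3.25 ± 0.33 for C-MYC against EV. Between BCR-ABL1 and C-MYC it was 4.59 ± 0.34, a 24.1-fold difference. The EV libraries set much of the first value, which was 1.82 without EV replicate 1 and 0.98 without EV replicate 2.

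Lrrc32 is best known from regulatory T cells, platelets and endothelium, and the markers of those cells did not share its order across conditions as lists. Regulatory T cell markers summed to 152.5 to 172.1 CPM in EV, 122.3 to 138.6 in BCR-ABL1 and 49.8 to 50.2 in C-MYC. Within that list Foxp3, the lineage-defining factor, had counts of 48 and 34 in EV cells, 9 and 5 with BCR-ABL1, and 6 and 10 with C-MYC, and Cd3e of the T cell receptor complex had 365 and 369, 17 and 27, and 16 and 12. Ctla4 alone of the 8 was most abundant in BCR-ABL1, with counts of 212 and 293, 1516 and 1363, and 453 and 441. Platelet markers summed to 44.2 to 52.8 CPM in EV, 8.60 to 10.7 in BCR-ABL1, where 1 of 8 was at 0 in both libraries, and 11.4 to 14.2 in C-MYC, likewise with 1 of 8 at 0. Endothelial markers summed to 7.29 to 9.07, 14.1 to 16.1 and 10.1 to 12.7 CPM, with 0, 2 and 1 of 8 at 0 in both libraries. With the oncogenes most of that sum was Egfl7 (64 and 82, 263 and 339, 188 and 192 counts), whereas Cdh5, which encodes VE-cadherin, had 12 and 11, 2 and 3, and 1 and 1 counts. The part of such cells in the Lrrc32 level was not tested.

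**Figure D1:**
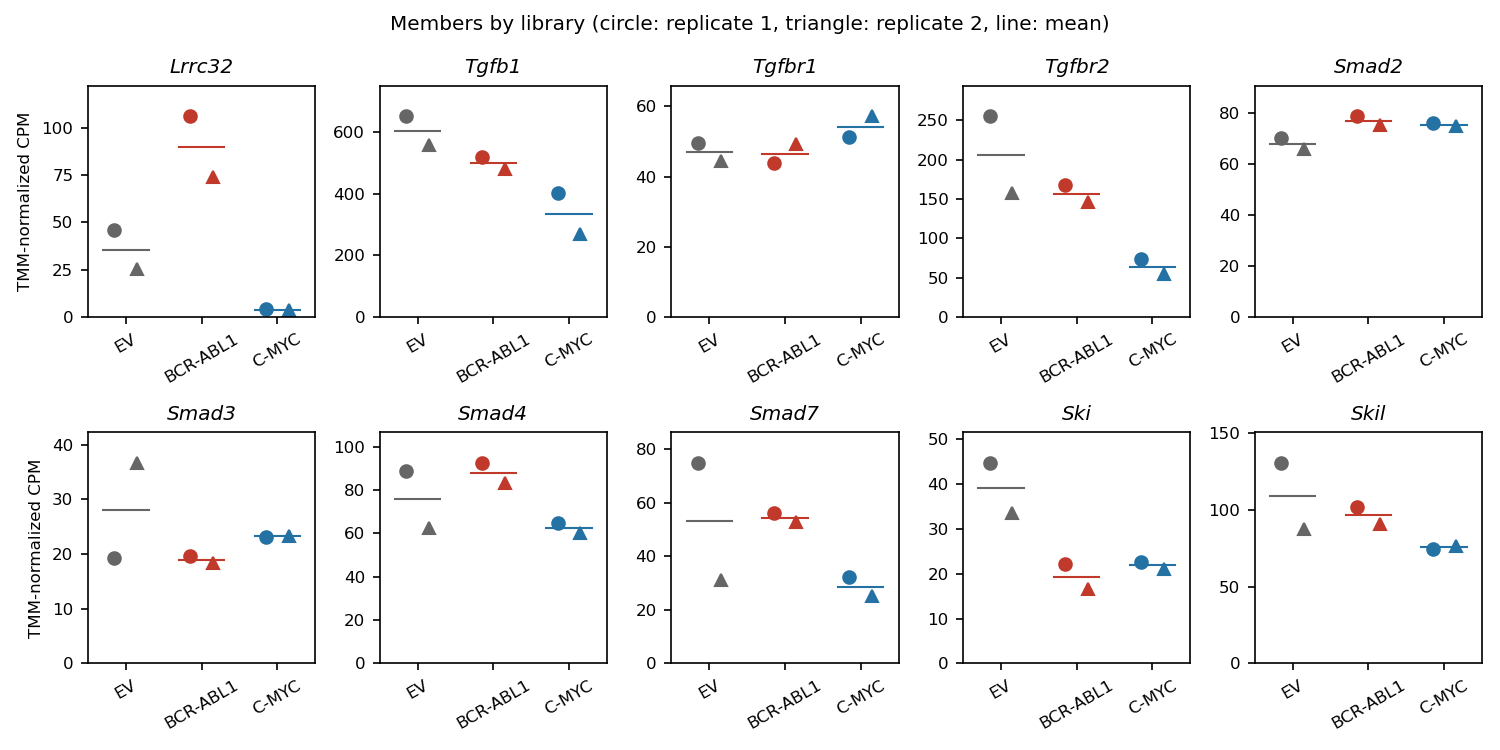
Each panel plots TMM-normalized CPM of one gene (y axis, linear from 0) in the 6 libraries by condition, with circles for replicate 1, triangles for replicate 2 and a line at the mean. The Lrrc32 libraries separate by condition, from 3.46 and 3.999 CPM in C-MYC to 73.96 and 106.2 CPM in BCR-ABL1, whereas the Smad2 and Tgfbr1 libraries lie close together and the EV libraries of Smad7 and Smad3 lie apart.

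Tgfb1 (chr7:25687002-25705077, plus strand) encodes the ligand that GARP docks, and it fell in C-MYC cells. Its levels were 651.5 and 556.3 CPM in EV cells, 520.2 and 480.8 with BCR-ABL1, and 400.7 and 268.4 with C-MYC, with no overlap between conditions. C-MYC cells had 0.55 times the EV level (log2 difference -0.85 ± 0.18; quasi-likelihood F test of edgeR, Benjamini-Hochberg adjusted p = 0.00775), a call kept in all 12 alternative analyses. The value for BCR-ABL1 against EV was -0.27 ± 0.18 (edgeR, adjusted p = 0.359). BCR-ABL1 against C-MYC gave 0.58 ± 0.18 and missed the threshold by a small margin (edgeR, adjusted p = 0.0552). That last comparison passed in 8 of 12 alternatives, among them the fits without EV replicate 1 (adjusted p = 0.0292), without EV replicate 2 (0.0283) and without C-MYC replicate 1 (0.0196).

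Of the receptor genes, Tgfbr2 fell in C-MYC cells and Tgfbr1 was not called. Tgfbr2 (chr9:116084293-116175360, minus strand) encodes the ligand-binding receptor, with 255.5 and 157.1 CPM in EV cells, 167.6 and 146.5 with BCR-ABL1, and 74.0 and 54.2 with C-MYC. Both C-MYC libraries lay below the other 4, and the EV and BCR-ABL1 libraries overlapped. Tgfbr2 fell in C-MYC against EV by 1.69 ± 0.24 on the log2 scale (edgeR, adjusted p = 0.00152), and this call was kept in all 12 alternatives. It was 2.45-fold higher in BCR-ABL1 than in C-MYC (log2 difference 1.29 ± 0.24; edgeR, adjusted p = 0.00886). The latter call was lost without BCR-ABL1 replicate 1 (adjusted p = 0.0648) or without C-MYC replicate 2 (0.0757). BCR-ABL1 against EV gave -0.39 ± 0.24 (edgeR, adjusted p = 0.304), and the value was -0.70 without EV replicate 2 (0.0240) and 0.00476 without EV replicate 1 (0.989).

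Tgfbr1 (chr4:47353222-47414931, plus strand), the signaling kinase of the receptor pair, had 49.6 and 44.5 CPM in EV cells, 43.9 and 49.2 with BCR-ABL1, and 51.2 and 57.3 with C-MYC. It passed the test in 0 of 3 comparisons, with log2 differences of -0.02 ± 0.13, 0.20 ± 0.13 and -0.22 ± 0.13 (edgeR, adjusted p = 0.955, 0.252 and 0.273). The C-MYC libraries were thus the lowest for Tgfbr2 and the highest for Tgfbr1, although the Tgfbr1 difference was not called. Whether the changes of the receptors differ from each other was not tested.

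The promoters of these ligand and receptor genes are shown because Tgfb1 and Tgfbr2, which fell in C-MYC cells, can then be read beside the receptor without a call, Tgfbr1. RefSeq windows of 300 bases on GRCm38.p6, which span the transcript start and lie mostly before it, were matched for 5 of the 10 genes (Tgfb1, Tgfbr1, Tgfbr2, Smad3 and Ski), and are written 5′ to 3′ on the gene's strand. Capitals mark the motifs that were searched on both strands: CACGTG, the E-box bound by MYC and related factors, GGGCGG, the GC box, and CAGAC, the core bound by SMAD proteins.
Tgfb1 promoter, chr7:25686752-25687051, plus strand: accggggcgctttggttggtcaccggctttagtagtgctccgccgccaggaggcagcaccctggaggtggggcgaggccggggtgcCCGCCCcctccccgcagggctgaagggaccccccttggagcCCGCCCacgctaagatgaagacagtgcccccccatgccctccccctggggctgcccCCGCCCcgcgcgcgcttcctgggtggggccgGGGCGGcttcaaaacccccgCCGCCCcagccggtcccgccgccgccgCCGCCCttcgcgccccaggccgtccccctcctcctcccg
Tgfbr2 promoter, chr9:116175314-116175613, minus strand: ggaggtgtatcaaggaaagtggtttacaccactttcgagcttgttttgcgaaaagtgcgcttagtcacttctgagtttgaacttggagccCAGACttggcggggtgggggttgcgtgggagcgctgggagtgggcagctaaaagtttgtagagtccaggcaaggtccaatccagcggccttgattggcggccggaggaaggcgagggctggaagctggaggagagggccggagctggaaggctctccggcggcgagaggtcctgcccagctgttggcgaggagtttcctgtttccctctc
Tgfbr1 promoter, chr4:47352972-47353271, plus strand: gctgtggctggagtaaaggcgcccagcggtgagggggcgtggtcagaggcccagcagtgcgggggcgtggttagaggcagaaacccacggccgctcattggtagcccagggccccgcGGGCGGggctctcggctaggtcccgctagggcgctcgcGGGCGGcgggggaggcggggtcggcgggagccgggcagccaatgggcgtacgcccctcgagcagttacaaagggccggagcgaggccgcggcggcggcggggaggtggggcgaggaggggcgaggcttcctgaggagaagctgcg

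The Tgfb1 window held 6 GC boxes, 0 E-boxes and 0 SMAD cores at 77% G and C. The Tgfbr2 window held 0 GC boxes, 0 E-boxes and 1 SMAD core at 59%, and the Tgfbr1 window 2, 0 and 0 at 74.7%. Of 32851 promoter windows of the same length, 7.15% held the E-box, 35.7% the GC box and 49.6% the SMAD core. The window of Ski, which also fell in C-MYC cells, held 6 GC boxes, as that of Tgfb1 did, and neither of the other motifs. The window of Smad3 held 2 GC boxes and neither of the others, and a second annotated start of Tgfbr1 had 0 GC boxes and 1 SMAD core. A match is a description of the letters and says nothing of binding.

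The receptor-activated SMADs and their shared partner were not called in any comparison. Smad2 was the most even of the 10 genes, at 70.2 and 66.0 CPM in EV cells, 78.9 and 75.4 with BCR-ABL1, and 76.1 and 74.9 with C-MYC. Its log2 differences were 0.18 ± 0.11 and 0.15 ± 0.11 against EV and 0.03 ± 0.11 between the oncogenes (edgeR, adjusted p = 0.312, 0.306 and 0.867). Smad3 (chr9:63646767-63757994, minus strand) had 19.4 and 36.7 CPM in EV cells, 19.6 and 18.5 with BCR-ABL1, and 23.1 and 23.4 with C-MYC. The 4 oncogene libraries of Smad3 lay near EV replicate 1, with EV replicate 2 above all others, and the differences of -0.56, -0.27 and -0.29 (each ± 0.27) did not pass (edgeR, adjusted p = 0.204, 0.445 and 0.483). Without EV replicate 1 Smad3 passed as lower in BCR-ABL1 (-0.95, adjusted p = 0.00296) and in C-MYC (-0.66, 0.00673), and without EV replicate 2 these values were -0.02 and 0.27. Smad4, the partner that both receptor SMADs need, had 88.9 and 62.6 CPM in EV cells, 92.7 and 83.3 with BCR-ABL1, and 65.0 and 60.2 with C-MYC. The oncogene conditions did not overlap for Smad4, but the difference of 0.49 ± 0.17 was not called (edgeR, adjusted p = 0.0780), and it passed without EV replicate 1 (0.00812) or without EV replicate 2 (0.00793). Against EV, Smad4 values were 0.22 ± 0.17 for BCR-ABL1 and -0.27 ± 0.17 for C-MYC (edgeR, adjusted p = 0.441 and 0.237). They were 0.50 (adjusted p = 0.0312) and 0.00363 (0.985) without EV replicate 1, and -0.0121 (0.959) and -0.50 (0.0116) without EV replicate 2.

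Of the inhibitors, Ski fell with both oncogenes and the others were not called. Ski (chr4:155154075-155222592, minus strand), a nuclear corepressor of SMAD complexes, had 44.7 and 33.4 CPM in EV cells, 22.04 and 16.5 with BCR-ABL1, and 22.6 and 21.02 with C-MYC. Both EV libraries lay above the 4 oncogene libraries, and BCR-ABL1 and C-MYC libraries overlapped. Ski was at 0.49 times the EV level in BCR-ABL1 (log2 difference -1.02 ± 0.20; edgeR, adjusted p = 0.0127) and at 0.56 times in C-MYC (-0.84 ± 0.20; edgeR, adjusted p = 0.0116), with -0.18 ± 0.20 between the oncogenes (edgeR, adjusted p = 0.559). The BCR-ABL1 call was lost without BCR-ABL1 replicate 2 (adjusted p = 0.120), and the C-MYC call without C-MYC replicate 1 (0.0595) or 2 (0.0776).

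Skil (chr3:31095058-31122577, plus strand), the SKI relative SnoN, had 130.9 and 87.3 CPM in EV cells, 102.0 and 91.1 with BCR-ABL1, and 74.7 and 76.7 with C-MYC. The C-MYC libraries were the lowest, but the difference from EV of -0.53 ± 0.18 stood just outside the threshold (edgeR, adjusted p = 0.0512) and passed without EV replicate 2 (-0.79, 0.00105). BCR-ABL1 against EV gave -0.18 ± 0.18 and BCR-ABL1 against C-MYC 0.35 ± 0.18 (edgeR, adjusted p = 0.569 and 0.209). The first was -0.44 without EV replicate 2 (adjusted p = 0.0342) and 0.15 without EV replicate 1 (0.416), and the second passed without EV replicate 1 (0.0276) or 2 (0.0269).

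Smad7, the inhibitory SMAD and itself a transcriptional target of the pathway, had EV libraries that stood far apart. It stood at 75.0 and 31.3 CPM in EV cells, 56.2 and 52.7 with BCR-ABL1, and 32.1 and 25.2 with C-MYC, so that EV replicate 1 was above and EV replicate 2 below both BCR-ABL1 libraries. The differences were 0.04 ± 0.35, -0.89 ± 0.35 and, between the oncogenes, 0.93 ± 0.35 (edgeR, adjusted p = 0.960, 0.0753 and 0.0970). BCR-ABL1 and C-MYC libraries of Smad7 did not overlap, and that comparison passed in 6 of 12 alternatives, among them without EV replicate 1 (0.00157) and without EV replicate 2 (0.00137). BCR-ABL1 against EV was 0.80 without EV replicate 1 (adjusted p = 0.0137) and -0.46 without EV replicate 2 (0.0725), and C-MYC against EV passed without EV replicate 2 (-1.39, 0.000276).

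**Figure D2:**
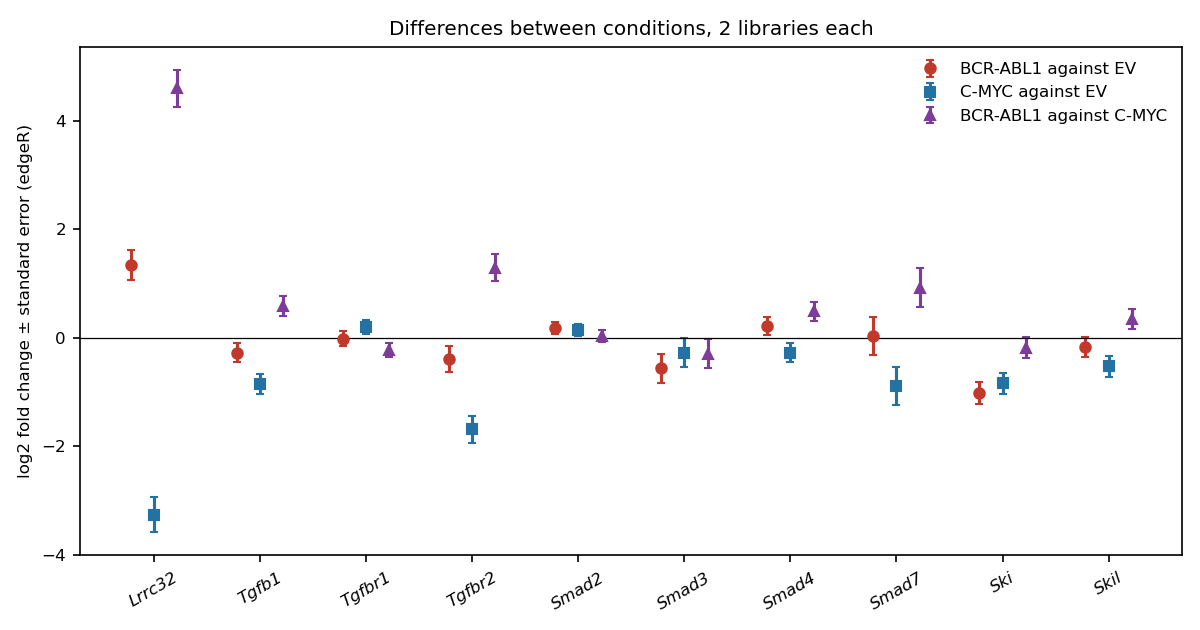
Points show the log2 fold change of each of the 10 genes (x axis) in the 3 comparisons, with bars of 1 standard error from the edgeR model of 6 libraries, 2 per condition. Lrrc32 stands apart at 4.59 for BCR-ABL1 against C-MYC and -3.25 for C-MYC against EV, while the other 9 genes lie between -1.69 and 1.29.

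Of the 9 partner genes, without Lrrc32, 0 lay higher and 1 lower (Ski) in BCR-ABL1 against EV, where 5.08% of 12786 tested genes were called higher and 12.0% lower. In C-MYC against EV, 0 lay higher and 3 lower (Tgfb1, Tgfbr2 and Ski), against 18.6% and 24.5% of all tested genes. In BCR-ABL1 against C-MYC, 1 lay higher (Tgfbr2) and 0 lower, against 11.9% and 11.5%. The median log2 difference over the 9 genes was -0.18, -0.53 and 0.35 in these comparisons, beside 0.00104, -0.0759 and 3.3e-05 over all tested genes. Each count of 0 called genes among these 9 was 0 as well at an unadjusted p below 0.05 in edgeR, with DESeq2 and with limma on FPKM. The comparisons share libraries and are not separate evidence. The numbers called depended on single libraries. The 1 call for BCR-ABL1 against EV became 4 without EV replicate 1, 3 without EV replicate 2 and 0 without BCR-ABL1 replicate 2. The 3 calls for C-MYC against EV became 6 without EV replicate 2 and 2 without either C-MYC library. For BCR-ABL1 against C-MYC the 1 call became 5 without either EV library, 2 without C-MYC replicate 1 and 0 without BCR-ABL1 replicate 1 or C-MYC replicate 2.

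Compared per transcript length, the deposited FPKM (fragments per kilobase of transcript, scaled to library depth) placed Lrrc32 at a different rank in each condition. In EV its FPKM was 13.9 ± 5.41 (SD, n = 2), the 7th of the 10 genes, below both Smad2 libraries (20.4 and 19.8) and above both Tgfbr1 libraries (8.06 and 7.36). In BCR-ABL1 cells its FPKM of 33.7 ± 8.41 was the 5th, and its libraries at 39.6 and 27.7 bracketed those of Smad7 (36.2 and 34.1) and overlapped those of Smad4 (29.1 and 26.5), so these neighbours did not differ beyond their spread. In C-MYC cells Lrrc32 was last at 1.36 ± 0.10 FPKM, below Ski (2.87 and 2.77) and Smad3 (2.83 and 3.02), which overlapped each other.

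At the top of the order by FPKM stood the ligand and its binding receptor. Tgfbr2 led in EV (191.5 ± 61.7) and BCR-ABL1 (138.9 ± 12.2), with Tgfb1 next at 126.4 ± 13.7 and 99.98 ± 5.50, and in C-MYC Tgfb1 (64.1 ± 15.1) and Tgfbr2 (54.6 ± 10.4) overlapped. Skil was the third by FPKM in every condition, at 55.6 ± 7.63, 52.0 ± 3.12 and 38.8 ± 3.08. In EV its libraries (61.0 and 50.2) overlapped those of Smad7 (50.4 and 21.3). Tgfbr1, at 7.71 ± 0.49, 7.27 ± 0.61 and 8.16 ± 0.89 FPKM, was far below Tgfbr2 by FPKM, and Ski and Smad3 were the lowest pair in EV and BCR-ABL1. The order of Tgfbr2 and of Skil depended on the measure. As CPM per kilobase of annotated exon, Tgfb1 led in every condition, at 119.8 ± 13.4 in EV cells, 99.3 ± 5.53 with BCR-ABL1 and 66.4 ± 18.6 with C-MYC. Tgfbr2 was the second in EV (25.2 ± 8.51), the fourth in BCR-ABL1 (19.2 ± 1.82, below Smad4 and beside Lrrc32 at 19.2 ± 4.87) and the fifth in C-MYC (7.82 ± 1.71). Skil was the 5th in EV and the 6th in BCR-ABL1 and in C-MYC. On that scale Tgfbr1 had 7.20 ± 0.55, 7.12 ± 0.58 and 8.30 ± 0.66 CPM per kilobase, so that its mean in C-MYC was above that of Tgfbr2, within their spread. Over the means of 6 libraries, 39 of 45 gene pairs had the same order by both measures, and Lrrc32 was last in C-MYC by both (0.80 ± 0.08 CPM per kilobase).

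**Figure D3:**
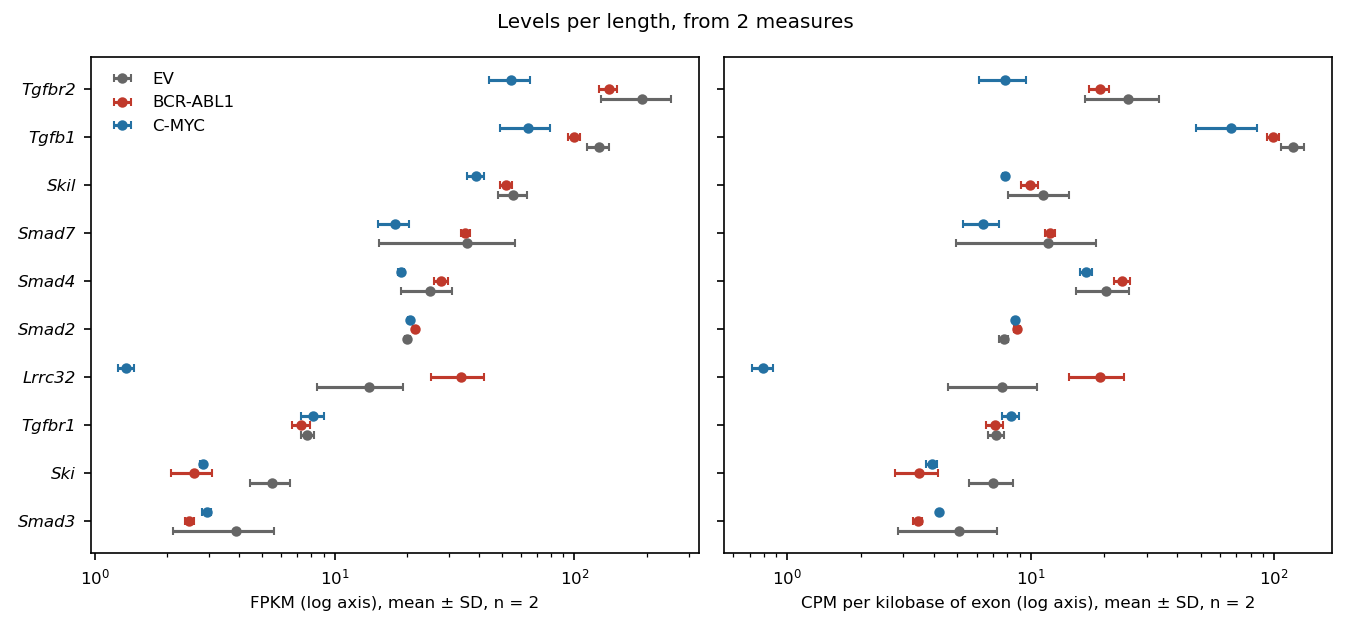
Means with SD bars (n = 2 libraries) of each gene in EV, BCR-ABL1 and C-MYC, as deposited FPKM on the left and as CPM per kilobase of annotated exon on the right, both on log axes. Lrrc32 moves from 33.7 FPKM in BCR-ABL1 to 1.36 in C-MYC while Smad2 stays between 20.1 and 21.7, and Tgfbr2 leads Tgfb1 in EV only by FPKM.

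The genes with a profile most like that of Lrrc32 were ranked by the root mean square difference of log2 CPM, centred on each gene's mean over the 6 libraries. The nearest 8 were Cd2 (0.355), Trem1 (0.375), H2-DMb2 (0.407), Col6a6 (0.440), Bfsp2 (0.446), Tnfsf8 (0.447), Dusp6 (0.470) and Tjp1 (0.479). Their Pearson correlation with Lrrc32 over these 6 libraries ran from 0.971 to 0.998, a description only, as the libraries form 3 pairs and the genes were picked for this likeness. Cd2, an adhesion receptor of lymphocytes, had counts of 422 and 554 in EV cells, 1681 and 1507 with BCR-ABL1, and 51 and 54 with C-MYC. Dusp6, a phosphatase that restrains ERK, had 695 and 1111, 1665 and 1906, and 88 and 105. Tnfsf8, the CD30 ligand, had 417 and 318, 1008 and 837, and 85 and 60, and Trem1, an activating receptor of myeloid cells, 353 and 246, 688 and 694, and 56 and 43. H2-DMb2 (197 and 110, 238 and 184, 10 and 14), a class II chaperone gene, has a close paralog that may share its reads, and its EV and BCR-ABL1 libraries overlapped in CPM. Bfsp2, a filament protein gene of the lens, had 196 and 240, 393 and 454, and 26 and 29 counts. The collagen gene Col6a6 and the tight junction gene Tjp1 had at most 129 and 79 counts in any library. None of the 9 partner genes was among the 8.

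**Figure D4:**
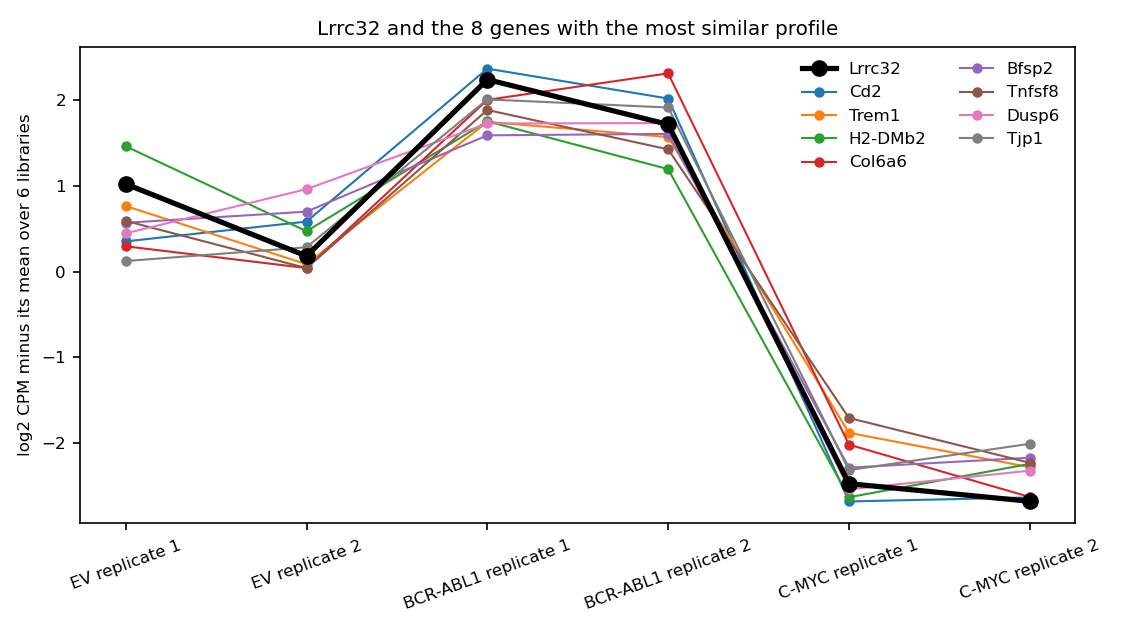
Lines give log2 CPM minus the mean over 6 libraries (y axis) of Lrrc32, in black, and of the 8 genes nearest to it, by library (x axis). In BCR-ABL1 all 9 genes are above their mean and in C-MYC all 9 are below it, and in the EV libraries all 9 are above it, with H2-DMb2 in EV replicate 1 between its BCR-ABL1 libraries.

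Outside these 10 genes the pathway was read from 120 further genes in 8 lists by role, of which 104 passed the filter. In BCR-ABL1 against EV 5 were called higher and 29 lower (4.81% and 27.9%), in C-MYC against EV 12 and 43 (11.5% and 41.3%), and in BCR-ABL1 against C-MYC 20 and 16 (19.2% and 15.4%), beside the shares of all genes given above. The median log2 difference was -0.09, -0.44 and 0.12, also with genes at 0 in a condition set to their bound. Without BCR-ABL1 replicate 1 the numbers called changed from 34 to 17 against EV and from 36 to 7 against C-MYC, and without C-MYC replicate 1 or 2 those for C-MYC against EV from 55 to 36 or 30. Without BCR-ABL1 replicate 2 they were 16 against EV and 13 against C-MYC, and without C-MYC replicate 1 or 2 those between the oncogenes were 20 and 8. A count of 0 called genes in the lists below was also 0 at an unadjusted p below 0.05 in edgeR, with DESeq2 and with limma on FPKM, except for nuclear cofactors higher in BCR-ABL1 than in EV, with 2 at an unadjusted p below 0.05, 1 with DESeq2 and 0 with limma. The genes named below have the largest called differences of their list, and those outside that rule are marked as chosen after their values were seen.

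Among 16 tested genes for latency and activation, 11 were lower and 0 higher in BCR-ABL1 than in EV (median -1.80). In C-MYC 10 were lower and 1 higher than in EV (median -2.03). Of all tested genes 12.0% were lower and 5.08% higher in BCR-ABL1 than in EV, and 24.5% and 18.6% in C-MYC than in EV. Fbn1, whose fibrillin anchors latent complexes in matrix, had 116 and 112 counts in EV cells, 8 and 13 with BCR-ABL1, and 4 and 4 with C-MYC. It was at 0.0371 times the EV level in C-MYC (log2 difference -4.75 ± 0.40; edgeR, adjusted p = 0.000306). Mmp9, a protease that can release TGF-β, had 1356 and 679, 125 and 72, and 43 and 43 counts and was at 0.0427 times the EV level in C-MYC (edgeR, adjusted p = 0.000506). Mmp2 (34 and 82, 5 and 8, 0 and 3 counts) and Ltbp1, a latent TGF-β binding protein (12 and 16, 1 and 0, 1 and 1), were too rare outside EV for a fold, and the call of Ltbp1 in BCR-ABL1 was lost in 4 of 12 alternatives (with DESeq2, with limma on FPKM and without either BCR-ABL1 library), at adjusted p of up to 0.137. These genes were highest in EV. So were the stromal sum (110.5 to 174.3 CPM in EV, at most 7.15 in the others) and the macrophage sum given above. Fbn1, Mmp9 and Mmp2 had fewer counts in C-MYC than in BCR-ABL1, without a call. The stromal sum was also lower in C-MYC (1.89 to 2.78 CPM) than in BCR-ABL1 (5.40 to 7.15), while the macrophage sum was higher in C-MYC. Within EV, Mmp9 and Fbn1 were higher in replicate 1, Mmp2 and Ltbp1 in replicate 2, and both sums in replicate 2. The part of stromal cells and macrophages in these genes was not tested. Nrros, which encodes a GARP relative that docks latent TGF-β in myeloid cells and was chosen after its values were seen, had 3689 and 3043 counts in EV cells, 3840 and 4057 with BCR-ABL1, and 3538 and 2854 with C-MYC, without a call.

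Of 5 other ligand genes tested, Tgfb2 rose in C-MYC. It had 3.04 and 3.18 CPM in EV cells, 2.70 and 2.58 with BCR-ABL1, and 14.8 and 12.4 with C-MYC, so that both C-MYC libraries stood above the rest. The rise over EV was 4.37-fold (log2 difference 2.13 ± 0.22; edgeR, adjusted p = 0.000486), and BCR-ABL1 against C-MYC gave -2.36 ± 0.22 (edgeR, adjusted p = 0.000955). Per length Tgfb2 still stood at 4.57 ± 0.38 FPKM in C-MYC, below Tgfb1 at 64.1 ± 15.1. Inhba, a subunit of activins, had 29 and 34 counts in EV cells, 0 and 0 with BCR-ABL1, and 1 and 0 with C-MYC, and was at least 20.9-fold lower in BCR-ABL1 than in EV when 3 counts over the BCR-ABL1 libraries are taken as the floor (edgeR, adjusted p = 0.00399). Inhbb, another activin subunit, had 24 and 37, 1 and 0, and 1 and 1 counts.

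Of 12 further receptors and receptor regulators, 1 was higher and 2 lower in BCR-ABL1 than in EV, and 3 and 1 in C-MYC than in EV. Between the oncogenes 2 were higher and 4 lower in BCR-ABL1, beside the shares of all genes given above. Cd109, a coreceptor that restrains TGF-β signaling, rose in C-MYC, with 20 and 17 counts in EV cells, 11 and 10 with BCR-ABL1, and 59 and 48 with C-MYC (2.95-fold over EV; edgeR, adjusted p = 0.0104, and 0.0779 without C-MYC replicate 1). Its call between the oncogenes (edgeR, adjusted p = 0.00582) was lost without BCR-ABL1 replicate 1 or 2, at adjusted p of up to 0.0590. Dab2, an adaptor of the receptors that is also abundant in macrophages, had 381 and 785, 86 and 103, and 359 and 456 counts and was at 0.165 times the EV level in BCR-ABL1 (edgeR, adjusted p = 0.00178). Acvrl1, an endothelial type I receptor, had 54 and 56, 7 and 3, and 12 and 33 counts and fell in BCR-ABL1 (0.0939 times EV; edgeR, adjusted p = 0.00957), a call lost without BCR-ABL1 replicate 2 (adjusted p = 0.0889). The macrophage sum was also lowest in BCR-ABL1, and its part in Dab2 was not tested. Acvr1c, a type I receptor of activins and nodal, had 21 and 9, 39 and 22, and 5 and 2 counts, and its higher level in BCR-ABL1 than in C-MYC (edgeR, adjusted p = 0.0215) was lost with limma on FPKM and without BCR-ABL1 replicate 1, C-MYC replicate 1 or C-MYC replicate 2, at adjusted p of up to 0.159.

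In the related BMP arm, 3 of 9 tested genes were lower and 0 higher in BCR-ABL1 than in EV. In C-MYC 4 were lower and 2 higher than in EV, beside the shares of all genes given above. Smad6, the inhibitory SMAD of that arm, had 35 and 19 counts in EV cells, 5 and 5 with BCR-ABL1, and 55 and 67 with C-MYC, and so ran opposite to Lrrc32 between the oncogenes, at 0.0819 times the C-MYC level in BCR-ABL1 (log2 difference -3.61 ± 0.50; edgeR, adjusted p = 0.00345). The BMP antagonist Grem1 had 12 and 18, 2 and 0, and 0 and 0 counts, at least 9.71-fold lower in C-MYC than in EV with 3 counts over the C-MYC libraries as the floor (edgeR, adjusted p = 0.00775). The ligand Bmp7 (13 and 22, 4 and 2, 1 and 3 counts) and the receptor Bmpr1a (35 and 25, 10 and 13, 14 and 7) were called lower in C-MYC than in EV (edgeR, adjusted p = 0.0104 and 0.0413). The call of Bmp7 was lost without C-MYC replicate 1 (adjusted p = 0.0913). That of Bmpr1a was lost in 8 of 12 alternatives, at adjusted p of up to 0.224, among them without EV replicate 1 and without any 1 of the 4 oncogene libraries.

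Of 14 regulators of SMAD turnover tested, 2 were higher and 0 lower in BCR-ABL1 than in EV, 2 and 4 in C-MYC than in EV, and 4 and 2 in BCR-ABL1 than in C-MYC, beside the shares of all genes given above. Of 15 nuclear cofactors 0 were higher and 1 lower, 2 and 5, and 2 and 1 in the same comparisons. Pmepa1 encodes a feedback inhibitor that sequesters receptor SMADs and is itself a target. Its levels were 74.7 and 55.6 CPM in EV cells, 118.2 and 86.7 with BCR-ABL1, and 46.2 and 31.1 with C-MYC. That is the same order of conditions as for Lrrc32. Pmepa1 was not called in BCR-ABL1 against EV, though (log2 difference 0.65 ± 0.24; edgeR, adjusted p = 0.104). It was 2.65-fold higher in BCR-ABL1 than in C-MYC (edgeR, adjusted p = 0.00695), a call lost without BCR-ABL1 replicate 1 or C-MYC replicate 2, at adjusted p of up to 0.0572. Tgif2, a corepressor of SMAD2, rose in C-MYC over EV, from 9.21 and 5.56 CPM to 21.9 and 16.3 CPM (2.59-fold; edgeR, adjusted p = 0.00543), while BCR-ABL1 libraries held 9.39 and 9.35 CPM. Atf3, a stress-induced factor that joins SMAD3, fell in both conditions against EV, to 0.248 times in BCR-ABL1 and 0.447 times in C-MYC (edgeR, adjusted p = 0.00280 and 0.00870), and the C-MYC call was lost without C-MYC replicate 1 (0.0602). Zeb2, a SMAD-binding repressor, had 82.5 and 163.9 CPM in EV cells, 67.3 and 56.9 with BCR-ABL1, and 58.4 and 49.3 with C-MYC and fell in C-MYC (edgeR, adjusted p = 0.0127), a call lost without C-MYC replicate 1 or 2, at adjusted p of up to 0.0891. Of 12 genes of non-SMAD signaling 0 were higher and 1 lower in BCR-ABL1 than in EV, and 1 and 4 in C-MYC than in EV. Between the oncogenes 3 were higher and 1 lower in BCR-ABL1, beside the shares of all genes given above. The gene called lower in BCR-ABL1 than in EV was the focal adhesion protein gene Tgfb1i1 (20 and 25, 5 and 1, 5 and 4 counts; edgeR, adjusted p = 0.0228). That call was lost with DESeq2 and without any 1 of the 4 oncogene libraries, at adjusted p of up to 0.200.

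Among known target genes of the pathway, as among all tested genes, more were called lower than higher in the transformed cells against EV. Of 21 tested, 9 were lower and 2 higher in BCR-ABL1, and 13 lower and 0 higher in C-MYC. Between the oncogenes 7 were higher and 3 lower in BCR-ABL1 (median -0.79, -0.96 and 0.24 in the 3 comparisons). Of all tested genes 12.0% were lower and 5.08% higher in BCR-ABL1 than in EV, and 24.5% and 18.6% in C-MYC than in EV. Between the oncogenes 11.9% were higher and 11.5% lower in BCR-ABL1. Fn1, fibronectin, had 67.1 and 115.0 CPM in EV cells, 8.25 and 8.06 with BCR-ABL1, and 2.25 and 2.83 with C-MYC. Col1a1, a collagen chain that is also 1 of the 8 stromal markers, had 52.0 and 76.1, 2.84 and 3.12, and 1.06 and 1.302 CPM. Ctgf had 22 and 93 counts in EV cells, 2 and 4 with BCR-ABL1, and 0 and 0 with C-MYC, at least 37.2-fold lower in C-MYC than in EV with 3 counts over the C-MYC libraries as the floor (edgeR, adjusted p = 0.00348). These 3 have their highest levels in the EV libraries that carry the stromal and macrophage markers, and the part of those cells was not tested. Cited2, a transcriptional coregulator, and Bcl2l11, the death-promoting BIM, were the 2 targets higher in BCR-ABL1 than in EV and were named after their values were seen.

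**Figure D5:**
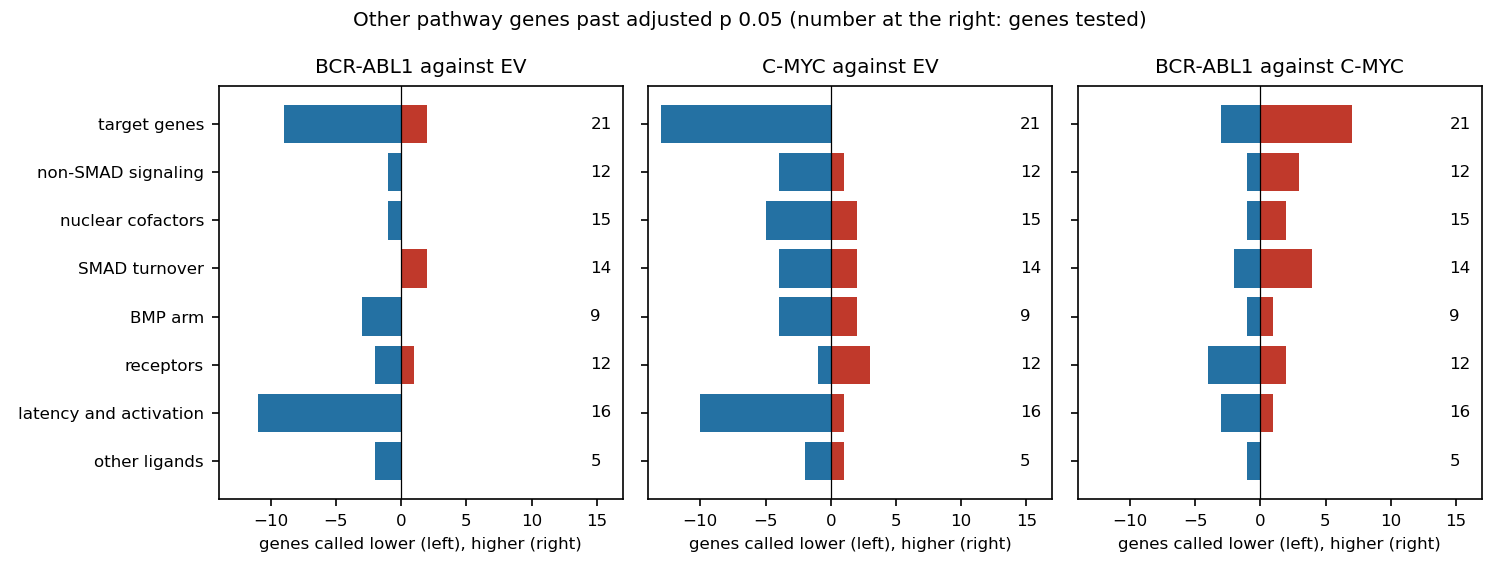
Bars count, for each of 8 lists of further pathway genes (y axis), the genes called lower (left) and higher (right) at an adjusted p below 0.05 in the 3 comparisons, with the number tested at the right of each panel. Against EV the longest bars are those of latency and activation (11 and 10 lower of 16) and of target genes (9 and 13 lower of 21), and between the oncogenes calls lie on both sides.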

How the data were processed

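RNA-seq of 6 libraries (EV, BCR-ABL1 and C-MYC, 2 each) was analysed; the labels gave each library's condition and replicate number. The 15 ChIP-seq samples were not analysed here. Reads were aligned by the authors to GRCm38/mm10 with STAR 2.5.0, and the deposited counts are unnormalized, 1 whole number per symbol and library. The deposited FPKM values come from StringTie 1.3.0. The counting program and its use of strand are not given in the sources used here. No column of other samples was present.

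Counts were fitted with edgeR 4.0.16 (R 4.3.3) in 1 model of 6 libraries with TMM scaling, and filterByExpr left 12786 of 24421 genes. Calls were made with the quasi-likelihood F test, where the p adjusted by Benjamini-Hochberg over all tested genes was below 0.05 (common biological coefficient of variation 0.151). No term for replicate was used. The script was tested on simulated data. CPM per kilobase used GENCODE M21 exon lengths, in which none of the 10 genes shares exon bases with another gene. DESeq2 1.42.0, limma 3.58.1 on log2(FPKM + 1), other scaling, filtering and sample choices were alternatives. Promoters were RefSeq windows. Figures were drawn with matplotlib 3.10.9.

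The 10 genes were always named, with up to 4 genes of each pathway list (largest absolute log2 fold change, at least 1, among those called) and the 8 profiles nearest to Lrrc32 (log2 CPM with a prior count of 2). Of the genes so named, 1 is not reported here. The members and lists were chosen with earlier results of these data known. Floors of 3 counts cover counting error only.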

Additional observations from a re-analysis of the deposited data

How the results depend on the processing

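The log2 differences of the 10 genes were each computed under 12 alternatives. Of these values 299 stayed the same, 37 newly passed, 5 lost the call and 13 changed sign. A value stayed the same if it kept direction and side of the threshold. For Lrrc32, which had no test, it did so by keeping direction and moving less than 1 SE. The other 6 values were of Lrrc32 and moved further. Lrrc32 stayed at 0.98 to 1.82 for BCR-ABL1 against EV, -3.61 to -2.61 for C-MYC against EV and 3.86 to 4.82 between the oncogenes. The sign changes were of differences without a call. In BCR-ABL1 against EV, leaving out 1 library gave values of -0.10 to 0.0723 for Tgfbr1, -0.70 to 0.00476 for Tgfbr2, -0.44 to 0.15 for Skil, -0.0121 to 0.50 for Smad4 and -0.46 to 0.80 for Smad7 (-0.00418 without BCR-ABL1 replicate 1). Tgfbr1 was also positive with the size factors of DESeq2 (0.00412), with DESeq2 (0.0123) and without EV replicate 1 (0.0697). In C-MYC against EV, Smad4 ran from -0.50 to 0.00363 and Smad3 from -0.66 to 0.27, and between the oncogenes Smad2 from -0.000989 to 0.0553 and Ski from -0.40 to 0.00652. The cause was not tested.

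Counts over the 10 genes here include Lrrc32, on which the set was chosen, and are descriptions. Of the 9 partner genes, without Lrrc32, the 1 called between the oncogenes became 4 without the filter and 3 with DESeq2. It became 5 with the 4 libraries alone, where 4538 of all genes passed in place of 2991. With limma on FPKM 19 of the pathway lists were called in place of 36. Leaving out 1 library gave 665 to 2729 called genes for BCR-ABL1 against EV, 3329 to 6077 for C-MYC against EV and 618 to 4519 between the oncogenes. The 10 genes gave 1 to 5, 3 to 7 and 1 to 6 calls, and the pathway lists 16 to 38, 30 to 64 and 7 to 51. With 1 library left in a condition, that library is assumed to vary like the others. Same-numbered libraries deviated together weakly (r = 0.27, 0.24 and 0.20 over 12786 genes), and with 2 numbers and no label for a shared animal they were not treated as pairs. A replicate block gave 3224, 6631 and 4278 called genes and 1, 5 and 4 of the 9 partner genes. The genes gained with the block were Smad7 (adjusted p = 0.0244) and Skil (0.0215) in C-MYC against EV, and Tgfb1 (0.00577), Smad4 (0.0187) and Smad7 (0.0193) between the oncogenes, each called lower in C-MYC (edgeR). Of 26 calls of named pathway genes, checked after the data had been seen, 15 were kept in each alternative run, 31 of 311 values lost the call and 0 changed direction. Grem1 gave no value without EV replicate 2.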
